A study of Arabidopsis thaliana with 15 samples.

Results

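The loci described here are 10 rows of the table whose RNA was low in wild-type plants or differed strongly between genotypes: AT3G01345, AT5G28335, AT3G29633, AT2G35570, AT4G04170, AT5G35935, AT3G42806, AT4G04223, AT3G01845 and AT5G60250. They are 10 of 21777 gene rows, picked by identifier as uncharacterized loci and pseudogenes with such values, with no stated threshold. Their differences between groups are therefore given as a description without a test. RNA was taken from shoots of 12-day-old Arabidopsis thaliana seedlings grown in 16 h of light and 8 h of dark, depleted of ribosomal RNA and sequenced in 15 libraries, 3 for each of 5 genotypes. WT was the control. The single mutants, rps6a and rps6b, are named for the mutated gene, of the 2 that code for ribosomal protein eS6. The genotypes called eS6A-HA and eS6A-Δ6SA were mutant in both genes, rps6a rps6b, and carried the transgene of that name. The labels give neither the mutant alleles, nor the transgene promoters, nor what Δ6SA stands for, nor whether each transgenic genotype was 1 line. They also do not say whether the 3 libraries of a genotype came from separately grown plants, so p-values measure only the spread between these libraries.

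eS6 is a protein of the small ribosomal subunit, and its carboxy-terminal tail is phosphorylated downstream of the TOR kinase. In plants, pseudogenes and transposon-derived sequences are mostly kept silent by DNA methylation and by methylation of histone H3 at lysine 9. MET1, the methyltransferase that copies CG methylation, and DDM1, a chromatin remodeller, maintain these marks, small RNAs guide methylation to new sites, and demethylases such as ROS1 remove it. Loci of this kind can therefore be nearly without RNA in one genotype and transcribed in another.

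The reference annotation lists 4 of the 10 as pseudogenes (AT5G28335, AT4G04170, AT5G35935 and AT3G42806), and AT2G35570 as a transcribed pseudogene of the SERPIN family of protease inhibitors. AT3G01345 and AT3G29633 are protein-coding genes for uncharacterized proteins. AT5G60250 codes for a zinc finger protein of the C3HC4 RING type, a family that contains many ubiquitin ligases. AT4G04223 is annotated as a non-coding RNA and AT3G01845 as a long non-coding RNA. The name "near-silent in WT" held for 6 of the 10, AT3G01345, AT5G28335, AT3G29633, AT2G35570, AT4G04170 and AT3G01845, which had at most 3 recovered reads in each WT library. AT4G04223 and AT5G60250 reached 5 and 7 reads in 1 WT library each. The name did not hold for AT3G42806, with 74.6 ± 10.3 normalized counts in WT (SD, n = 3), nor for AT5G35935, with 19.9 ± 7.92.

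The sequences just before the annotated starts are shown for loci that were highest in different lines. Each window is 250 bases long, ends at the base before the start and is read in the direction of the gene, from the RefSeq assembly TAIR10.1. Capitals in the first 3 mark TAGGGTTT, the reverse complement of AAACCCTA, known as the telo-box, an element of many plant ribosomal protein promoters. Capitals in AT3G29633 mark TTTATA, the reverse complement of TATAAA, and AT3G01345 held no searched motif.
AT4G04170 (highest in rps6a), chr4:2013447-2013696, plus strand: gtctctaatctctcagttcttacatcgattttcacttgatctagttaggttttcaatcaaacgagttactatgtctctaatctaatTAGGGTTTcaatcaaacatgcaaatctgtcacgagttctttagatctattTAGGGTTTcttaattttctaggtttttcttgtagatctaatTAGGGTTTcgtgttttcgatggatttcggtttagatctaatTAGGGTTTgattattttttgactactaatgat
AT5G28335 (highest in eS6A-Δ6SA), chr5:10313587-10313836, minus strand: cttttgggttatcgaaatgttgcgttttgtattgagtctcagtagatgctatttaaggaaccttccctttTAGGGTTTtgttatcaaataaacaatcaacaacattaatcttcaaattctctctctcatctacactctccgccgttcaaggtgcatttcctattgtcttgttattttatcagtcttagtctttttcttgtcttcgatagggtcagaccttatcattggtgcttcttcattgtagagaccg
AT3G42806 (highest in rps6a and rps6b), chr3:14913758-14914007, plus strand: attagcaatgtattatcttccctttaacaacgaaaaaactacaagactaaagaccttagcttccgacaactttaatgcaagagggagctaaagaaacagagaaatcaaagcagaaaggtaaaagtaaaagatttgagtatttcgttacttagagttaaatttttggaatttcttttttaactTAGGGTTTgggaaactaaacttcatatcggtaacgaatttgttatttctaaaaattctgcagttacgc
AT3G29633 (high only in eS6A-Δ6SA), chr3:11453529-11453778, minus strand: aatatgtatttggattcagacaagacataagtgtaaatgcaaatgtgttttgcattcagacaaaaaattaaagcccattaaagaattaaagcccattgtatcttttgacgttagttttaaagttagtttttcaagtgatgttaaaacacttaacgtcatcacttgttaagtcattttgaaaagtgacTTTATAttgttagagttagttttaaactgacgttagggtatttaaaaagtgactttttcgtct
AT3G01345 (high in rps6a, rps6b and eS6A-Δ6SA), chr3:128888-129137, plus strand: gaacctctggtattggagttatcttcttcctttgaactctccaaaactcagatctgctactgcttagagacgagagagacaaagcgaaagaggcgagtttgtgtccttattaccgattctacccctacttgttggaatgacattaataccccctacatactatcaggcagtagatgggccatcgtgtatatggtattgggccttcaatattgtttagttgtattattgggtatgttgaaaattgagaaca

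Motifs were searched on both strands from 250 bases before to 50 bases after each start. The telo-box AAACCCTA was found in 3 of the 10 loci and in 6.17% of 37897 such windows over all annotated genes. AT4G04170 held it 4 times, each in the orientation printed, and AT5G28335 and AT3G42806 held it once. TATAAA was found in 4 of 10 (AT3G29633, AT2G35570, AT5G35935 and AT3G01845) and in 48.8% of all windows. The G-box, CACGTG, was found in 0 of 10 and in 6.46% of all windows. The motif of SOG1, a factor of the DNA damage response, is CTT followed after any 7 bases by AAG, and it was found in 0 of 10 and in 11.5% of all windows. These matches are descriptions of letters, not of binding. Pseudogenes were part of the choice of loci, and the 3 with a telo-box are pseudogenes. Nothing is therefore read from these shares beside those of all windows.

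The mutated genes were read first as a check of the genotypes. RPS6A (AT4G31700) stood at 952 ± 120 normalized counts in WT (SD, n = 3) and at 69.8 ± 13.7 in rps6a. It was at 1724 ± 125 in rps6b and, in the transgenic lines, at 1239 ± 137 (eS6A-Δ6SA) and 1827 ± 57.4 (eS6A-HA), which did not overlap, so RNA read on this row differed between the lines compared below. RPS6B (AT5G10360) stood at 932 ± 41.3 in WT, 266 ± 12.2 in rps6b, and in the transgenic lines at 64.3 ± 5.11 (eS6A-Δ6SA) and 86.7 ± 12.8 (eS6A-HA). Gene reads per library ranged from 5726410 to 10009723, so 1 read was worth 0.784 to 1.21 normalized counts. Shoot markers were high in every library (5 of 5 genes). Their summed level was lower in rps6a, at 135830 to 159038, than in WT, at 161434 to 186912. RBCS1A did not fall, with a mean of 52213 in rps6a and 52024 in WT, while the other shoot markers had lower means. The 3 of 5 root markers with a row summed to 6.05 to 13.4 in rps6a, above WT at 1.19 to 5.72 and all other libraries, at 1.06 to 5.73. IRT1 and COBL9 had higher means in rps6a (3.74 and 2.48) than in WT (0 and 0.636), while WER moved little (2.75 and 2.57). The part of these shifts in the rps6a results below was not tested. Flower and pollen markers (0 of 5 with a row to read) were not analysed here. The seed storage genes CRU3, CRA1 and SESA1 summed to 406 to 786 in eS6A-Δ6SA, 332 to 593 in rps6a and 108 to 350 in rps6b, beside 151 to 168 in WT and 146 to 186 in eS6A-HA. SESA1 was listed at 0 in some libraries of each group but rps6a, and the part of seed RNA in the results below was not tested. In whole shoots, fewer cells of a type and less RNA per cell cannot be told apart.

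Against WT, every rps6a library lay above every WT library for 8 of the 10 loci, where 17.1% of all gene rows did so. For rps6b the count was 9 of 10 (16.9% of all rows) and for eS6A-Δ6SA 9 of 10 (8.09%). For eS6A-HA it was 2 of 10 (7.9%), namely AT5G28335 and AT3G42806. The eS6A-Δ6SA libraries lay above those of eS6A-HA for 9 of 10 loci (9.06% of all rows), the exception being AT3G01845. For AT4G04170 this rested on 3 reads in eS6A-Δ6SA against 0 in eS6A-HA. AT5G35935 was the only one of the 10 with every library below WT, in rps6a (15.3% of all rows) and in eS6A-HA (7.06%). Because the loci were picked on these differences, nothing is read from the counts beside their backgrounds. The 4 comparisons with WT share its 3 libraries.

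**Figure D1:**
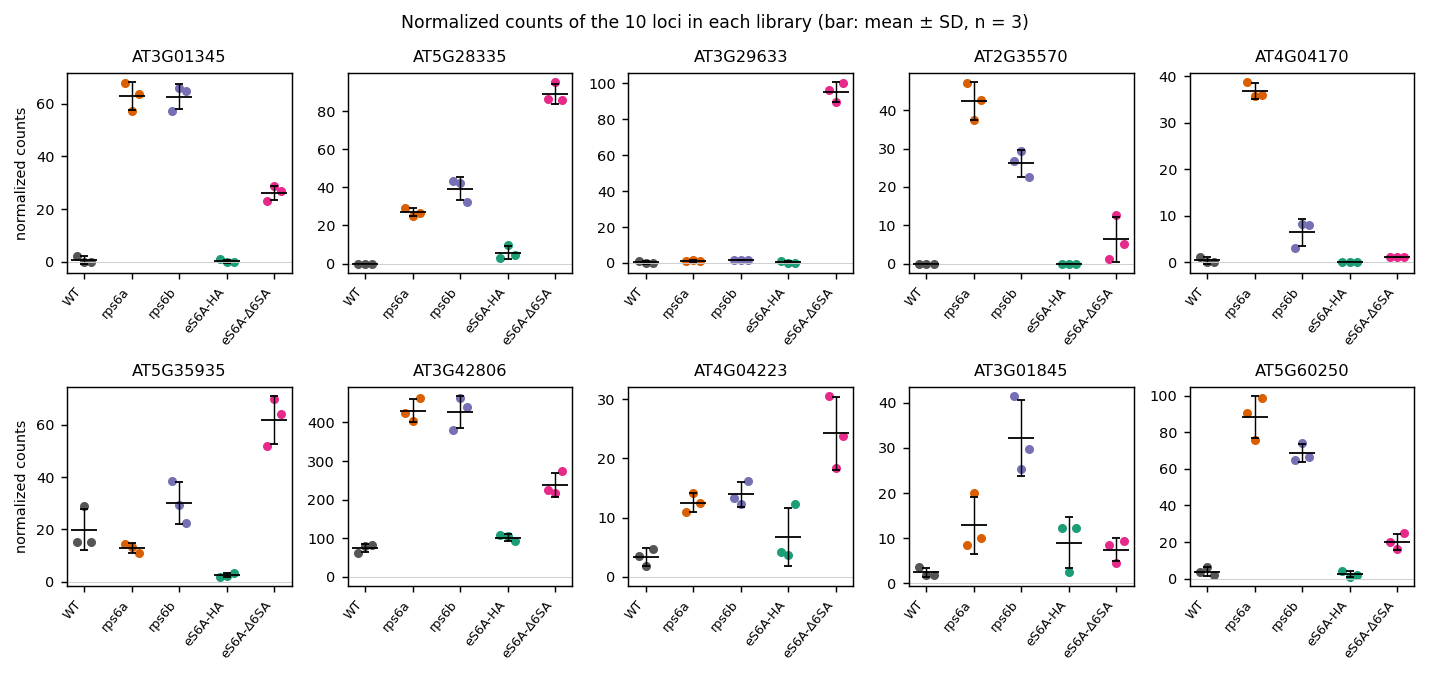
Normalized counts (y axis, linear, a separate scale in each panel) of each locus in the 5 genotypes (x axis). Points are the 3 libraries of a genotype and the bar is their mean with its SD. AT3G29633 is high only in eS6A-Δ6SA (89.4 to 99.98), whereas AT3G42806 and AT5G35935 have clear levels in WT.

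The annotated pseudogenes did not share a single pattern. AT4G04170 was highest in rps6a, at 38.7, 35.7 and 35.9 normalized counts in the 3 libraries. It stood at 3.14, 8.15 and 8.09 in rps6b, at 1.06, 1.15 and 1.03 in eS6A-Δ6SA, at 1.19, 0 and 0 in WT and at 0 in each eS6A-HA library. The rps6a libraries were thus apart from all others, those of rps6b lay between, and those of eS6A-Δ6SA overlapped WT. With 118 reads in rps6a and 1 in WT the ratio was 109 (95% counting interval 19.3 to 4359), and against rps6b, with 23 reads, it was 5.75 (3.65 to 9.42). These and all later intervals are exact and cover counting error only. AT4G04170 was the only one of the 10 with a mean under 10 over the 15 libraries, and so did not pass the filter used for tests.

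AT5G28335 had 0 reads in each WT library, which allows a level of up to 1.00 normalized counts when 3 reads over the 3 libraries are taken as the floor. Its values were 86.5, 95.1 and 85.5 in eS6A-Δ6SA, 43.1, 42.4 and 32.3 in rps6b, 29.0, 24.9 and 26.7 in rps6a and 3.09, 9.71 and 4.49 in eS6A-HA. No group overlapped the next one in this order. The level was 88.7 times this floor in eS6A-Δ6SA, 39.5 times in rps6b, 26.6 times in rps6a and 5.57 times in eS6A-HA. These values leave out the counting error of the higher line, so they are not lower bounds. The eS6A-Δ6SA to eS6A-HA ratio was 15.9 (95% counting interval 9.46 to 28.9).

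AT3G42806 was the most abundant of the 10 per library. Its values were 425, 404 and 463 in rps6a, 381, 463 and 439 in rps6b, 224, 218 and 274 in eS6A-Δ6SA, 108, 106 and 92.1 in eS6A-HA and 62.8, 79.0 and 82.0 in WT. Both single mutants overlapped each other and lay above all other libraries, with ratios to WT of 5.71 (4.96 to 6.60) in rps6a and 5.65 (4.91 to 6.53) in rps6b. The eS6A-Δ6SA libraries came next, at 3.17 times WT (2.72 to 3.70), and the eS6A-HA libraries were just above those of WT, at 1.35 times (1.13 to 1.62).

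AT5G35935 followed neither scheme. Its values were 51.7, 69.9 and 63.9 in eS6A-Δ6SA, 38.4, 29.3 and 22.5 in rps6b, 15.4, 29.1 and 15.3 in WT, 14.5, 13.3 and 10.9 in rps6a and 2.06, 2.43 and 3.37 in eS6A-HA. The rps6b libraries overlapped those of WT, the rps6a libraries lay just below them, and the transgenic lines lay apart on either side. The ratio to WT was 3.02 (2.25 to 4.12) in eS6A-Δ6SA, 0.623 (0.409 to 0.941) in rps6a and 0.128 (0.0493 to 0.280) in eS6A-HA. Between the transgenic lines it was 23.7 (11.2 to 59.7).

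AT2G35570, the SERPIN pseudogene, had 0 reads in each library of WT and of eS6A-HA. It stood at 47.2, 37.4 and 42.6 in rps6a, at 26.7, 29.3 and 22.5 in rps6b and at 1.06, 12.6 and 5.15 in eS6A-Δ6SA. The single mutants did not overlap, and the eS6A-Δ6SA libraries, which spread widely, lay below both. The level of AT2G35570 was 41.7 times the WT floor in rps6a, 26.2 times in rps6b and 6.08 times in eS6A-Δ6SA, the last resting on 17 reads. These are likewise not lower bounds.

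Among the protein-coding loci, AT3G01345 was high in both single mutants, which overlapped, at 67.7, 57.3 and 63.5 in rps6a and 57.2, 66.0 and 64.7 in rps6b. It stood at 23.2, 28.6 and 26.8 in eS6A-Δ6SA, at 2.37, 0 and 0 in WT and at 1.03, 0 and 0 in eS6A-HA. The eS6A-Δ6SA libraries thus lay between the single mutants and WT, and eS6A-HA overlapped WT. The rps6a to rps6b ratio was 0.996 (0.820 to 1.21) and the rps6a to eS6A-Δ6SA ratio 2.38 (1.81 to 3.16). With 2 reads in WT, the ratios to WT are loosely bounded, at 93.2 (25.5 to 775) in rps6a and 39.2 (10.5 to 329) in eS6A-Δ6SA.

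AT3G29633 was high in eS6A-Δ6SA, at 96.0, 89.4 and 99.98. Its values were 1.57, 1.63 and 1.80 in rps6b, 1.21, 1.66 and 0.836 in rps6a, 1.19, 0 and 0 in WT and 1.03, 0 and 0 in eS6A-HA, where each library had at most 2 reads. The rps6b libraries were all above WT by this count, with 6 reads against 1 and a ratio of 4.97 (0.603 to 228), so that difference was not detectable at this depth. Between eS6A-Δ6SA with 266 reads and eS6A-HA with 1, the ratio was 256 (45.6 to 10152).

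AT5G60250, the RING finger gene, stood at 90.7, 75.6 and 98.6 in rps6a, 65.1, 74.1 and 66.5 in rps6b, 20.1, 16.0 and 24.7 in eS6A-Δ6SA, 3.56, 6.36 and 1.91 in WT and 4.11, 1.21 and 2.25 in eS6A-HA. Its order of lines was that of AT2G35570, and eS6A-HA again overlapped WT. The ratio to WT was 21.9 (12.4 to 43.0) in rps6a, 17.1 (9.62 to 33.6) in rps6b and 5.10 (2.703 to 10.4) in eS6A-Δ6SA. The eS6A-HA to WT ratio was 0.650 (0.217 to 1.79).

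The non-coding RNAs were lower and more scattered. AT4G04223 had values of 30.6, 18.3 and 23.7 in eS6A-Δ6SA, 13.3, 12.2 and 16.2 in rps6b, 10.9, 14.1 and 12.5 in rps6a, 4.11, 3.64 and 12.4 in eS6A-HA and 3.56, 1.82 and 4.77 in WT. The single mutants overlapped each other, and rps6a, eS6A-HA and WT formed a chain in which each overlapped the next. Its ratio to WT was 7.29 (3.73 to 15.9) in eS6A-Δ6SA and 2.01 (0.878 to 4.86) in eS6A-HA. AT3G01845 was highest in rps6b, at 41.6, 25.3 and 29.6, and stood at 8.47, 19.9 and 10.03 in rps6a. In eS6A-HA it was at 12.3, 2.43 and 12.4, in eS6A-Δ6SA at 8.44, 4.58 and 9.28 and in WT at 3.56, 1.82 and 1.91. Only the rps6b libraries were apart from all others, with a ratio of 13.8 to WT (6.51 to 35.2), and the transgenic lines overlapped each other (0.809, 0.430 to 1.505).

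**Figure D2:**
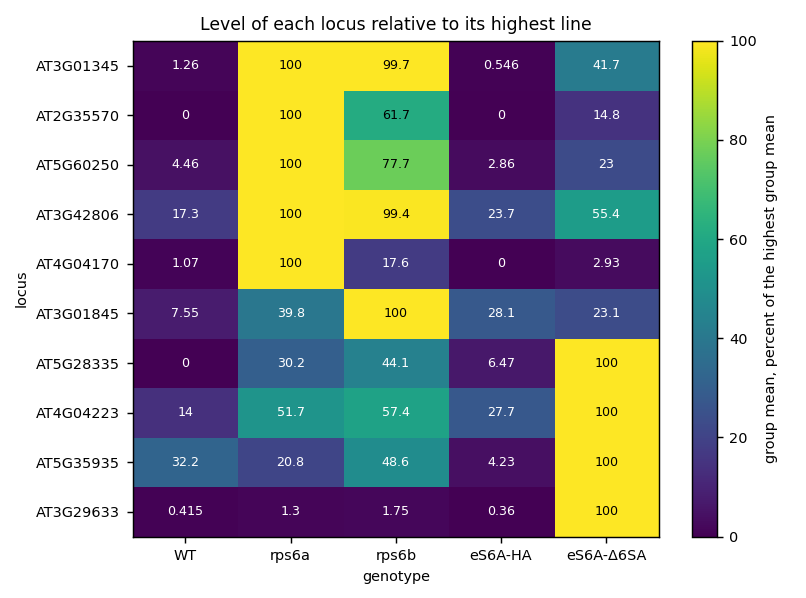
Mean level of each locus (y axis) in each genotype (x axis) as a percent of that locus's highest group mean, written in the cell and shown by colour. The highest mean was that of rps6a for 5 loci, rps6b for 1 and eS6A-Δ6SA for 4, and eS6A-HA lay between 0 and 28.1%. For AT3G01345 and AT3G42806, counted under rps6a, rps6b stood at 99.7% and 99.4% and its libraries overlapped those of rps6a.

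Per kilobase of annotated exon, the highest group mean was 93.3 normalized counts for AT3G29633, 92.3 for AT3G42806, 52.3 for AT3G01845, 42.9 for AT4G04223 and 39.0 for AT3G01345. It was 27.2 for AT5G60250, 20.8 for AT2G35570, 17.9 for AT5G28335, 9.51 for AT5G35935 and 7.94 for AT4G04170. The long pseudogenes AT5G35935 (6504 bases) and AT4G04170 (4632 bases) were thus lowest on this scale, while AT3G42806 (4660 bases) was near the top.

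Across the 15 libraries, AT5G60250 and AT3G01345 were the most alike of the 10, with a Pearson r of 0.958 of log2(normalized count + 1). AT5G60250 and AT3G42806 had 0.956, AT5G60250 and AT2G35570 0.951, and AT4G04170 and AT3G29633 the lowest value, -0.058. These correlations are descriptions: they are carried by the same 5 group means, and many points sit at or near 0. Among all rows with a mean of at least 5, the row most like AT3G01345 was AT3G02120 (r 0.976), followed by TIF3C2 (0.976), named for a subunit of translation initiation factor 3, and HIK (0.969), a kinesin of cytokinesis. GMI1 (AT5G24280), a gene of DNA repair, was the most like AT5G60250 (0.982) and second for AT2G35570 (0.973), where AT5G53230 came first (0.984). GMI1 had a mean of 194 normalized counts in rps6a, 153 in rps6b and 69.1 in eS6A-Δ6SA, beside 23.7 in WT and 19.1 in eS6A-HA. DPE2, a glucanotransferase of maltose breakdown, was most like AT3G42806 (0.977), with the small nucleolar RNA AT2G08760 next (0.974).

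The remaining loci had less close matches. AT4G04170 was most like AT3G62270 (0.945). LOX2, a lipoxygenase of jasmonate synthesis, came second for AT3G01845 (0.920) after AT1G75280 (0.935). AGL19, a MADS-box factor, was most like AT5G28335 (0.926), and ATH1, a homeobox factor, most like AT4G04223 (0.886). AT3G29633 and AT5G35935 reached 0.891 with ARP9, an actin-related protein, and 0.867 with AT2G27580. ARP9 stood at 55.7 normalized counts in WT and 78.7 in eS6A-Δ6SA, a far smaller difference than that of AT3G29633.

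To place the loci among all rows, those with at most 3 reads in each WT library and at least 20 normalized counts in every library of another genotype were counted. Of 2460 rows that low in WT, 11 met the second condition, and 6 of these are among the 10 loci. By line, 8 were on in rps6a, 6 in rps6b, 3 in eS6A-Δ6SA and 0 in eS6A-HA. By combination, 4 were on in rps6a alone, 2 in rps6b alone, 1 in eS6A-Δ6SA alone (AT3G29633), 2 in both single mutants and 2 in both single mutants and eS6A-Δ6SA (AT3G01345 and AT5G28335). Without WT replicate 2 the count was 18 rather than 11. The other 5 were NAC044 (AT3G01600), a NAC transcription factor, CHX16 (AT1G64170), a cation/proton exchanger, AT1G17960, AT4G30170 and the 18S ribosomal RNA row AT2G01010. NAC044 reached 80.6 ± 13.6 in rps6a, 41.3 ± 3.58 in rps6b and 19.3 ± 8.40 in eS6A-Δ6SA, and AT2G01010 reached 53.9 ± 10.2 in rps6b. The libraries were depleted of ribosomal RNA, so the level of AT2G01010 cannot be read as a locus switched on. It is counted among the 6 on in rps6b and the 2 on in rps6b alone. By annotation, 6 of the 11 are protein-coding.

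Other pseudogenes had shares of rows above WT near those of all rows. Of the other 424 pseudogene rows, every library was above WT in 73 for rps6a (17.2%, where all rows gave 17.1%), 63 for rps6b (14.9%, all rows 16.9%), 36 for eS6A-HA (8.49%, all rows 7.9%) and 41 for eS6A-Δ6SA (9.67%, all rows 8.09%). Of 672 other non-coding RNA rows, the share was 9.82% in rps6a and 12.5% in rps6b.

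The loci differ in how uniquely reads can be placed. AT5G28335 (4986 bases, chr5:10308601-10313586, minus strand) has 2 near-copies on chromosome 3, with 99.1% identity over 4987 and 4720 aligned bases, and neither has a row in the table analysed here. Only 48.8% of its 75-base windows, the read length, occur once in the genome. The stretch below is shown because it holds 3 positions, in capitals, at which AT5G28335 differs from both copies, so that a read across it can be assigned.
AT5G28335, chr5:10312628-10312717, minus strand: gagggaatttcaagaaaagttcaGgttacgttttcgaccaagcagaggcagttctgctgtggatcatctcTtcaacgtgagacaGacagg
copy on chromosome 3, chr3:13676054-13676143, plus strand: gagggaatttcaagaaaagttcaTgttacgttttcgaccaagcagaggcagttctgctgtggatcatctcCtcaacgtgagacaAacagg
copy on chromosome 3, chr3:13743758-13743847, minus strand: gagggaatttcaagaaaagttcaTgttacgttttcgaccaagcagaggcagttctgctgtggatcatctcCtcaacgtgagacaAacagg

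How reads with several equally good places were counted is not given in the sources used here, so the level of AT5G28335 is that of the locus together with an unknown share of its copies. AT4G04223 (chr4:2036511-2037816, plus strand, 3 exons) has 45.6% unique windows and a copy with 99.2% identity inside AT3G56210. That gene was highest in eS6A-HA, at 67.9 ± 8.47 normalized counts, followed by rps6b (66.2 ± 3.66), eS6A-Δ6SA (57.7 ± 11.6), rps6a (53.9 ± 8.89) and WT (44.1 ± 3.50). For AT3G42806 (chr3:14914008-14918667, plus strand, 96.3% unique), the listed copies AT5G34871 and AT5G34851 had means of at most 3.17 and 6.27 in any line. AT2G35570 (chr2:14931139-14933175, minus strand) had 92.0% unique windows and AT4G04170 (chr4:2013697-2018328, plus strand) 98.6%. AT3G01345 (chr3:129138-130749, plus strand), AT3G29633 (chr3:11452509-11453528, minus strand), AT5G35935 (chr5:14083388-14089891, minus strand) and AT5G60250 (chr5:24252138-24255900, plus strand, 4 exons) had 100%.

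AT3G01845 (chr3:1967314-1968086, minus strand, 2 exons) is a near-copy of its neighbour AT3G01835, with 98.96% identity over 772 bases and 47.5% unique windows. AT3G01835 was likewise highest in rps6b, with a mean of 11.9, beside 3.94 in eS6A-Δ6SA, 3.43 in rps6a, 0.923 in WT and 0.686 in eS6A-HA, and reads of the pair can be shared. Within AT3G01845, a 60-base unit occurs in tandem, and 2 adjoining units differ at 1 base, in capitals.
AT3G01845 unit 1, chr3:1967667-1967726, minus strand: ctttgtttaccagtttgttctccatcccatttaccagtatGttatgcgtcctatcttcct
AT3G01845 unit 2, chr3:1967607-1967666, minus strand: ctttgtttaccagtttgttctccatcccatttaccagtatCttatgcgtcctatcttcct

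**Figure D3:**
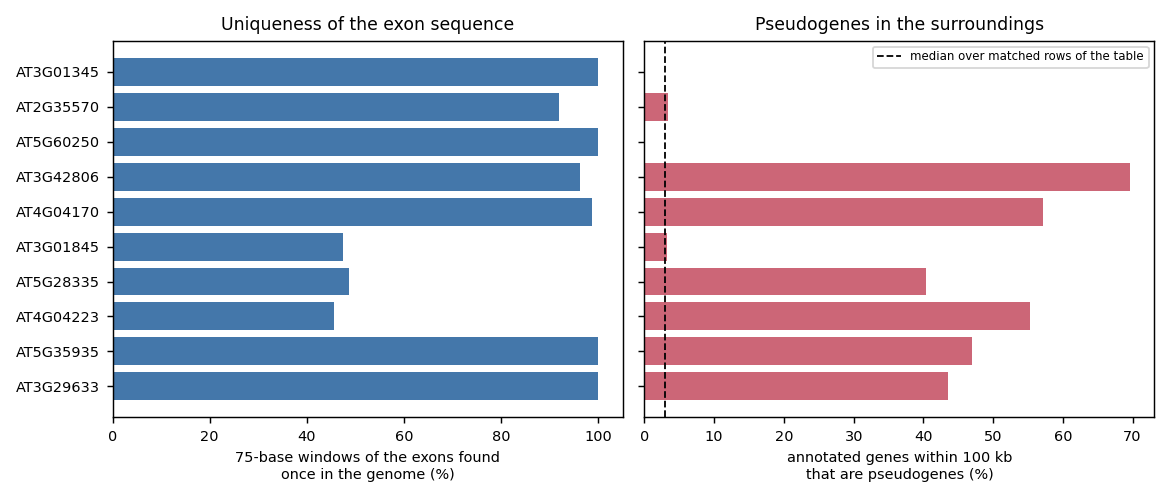
Left, percent of 75-base exon windows that occur once in the genome. Right, percent of annotated genes within 100 kb that are pseudogenes, with the median over matched table rows (2.94%) as a dashed line. AT5G28335, AT4G04223 and AT3G01845 have the least unique exons (45.6% to 48.8%), and 6 of the 10 loci lie in pseudogene-rich surroundings.

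Of the 10 loci, 6 lie where at least 25% of the annotated genes within 100 kb are pseudogenes, which holds for 4.74% of 21565 matched rows. The share was 69.6% around AT3G42806, 57.1% around AT4G04170, 55.4% around AT4G04223, 46.9% around AT5G35935, 43.5% around AT3G29633 and 40.4% around AT5G28335. It was at most 3.37% around the other 4. Because pseudogenes were part of the choice of loci, nothing is read from the 6 of 10 beside the share of matched rows. Of these 6, AT4G04223, AT5G35935, AT3G29633 and AT5G28335 were highest in eS6A-Δ6SA, and AT4G04170 and AT3G42806 in rps6a, the last overlapping rps6b. Of the other 4, AT3G01345, AT2G35570 and AT5G60250 were highest in rps6a and AT3G01845 in rps6b. This split was not tested, as the loci were picked on these values. AT4G04170 and AT4G04223, which differed in their highest line, lie 18.2 kb apart on chromosome 4. Overlapping annotated genes limit AT2G35570 (AT2G35555, same strand), AT3G01845 (AT3G00220, opposite strand) and AT5G60250 (AT5G60260, opposite strand). The use of strand in counting is not given in the sources used here, so reads of opposite-strand partners cannot be told apart.

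Whether the genes around the loci moved too was tested on up to 10 listed genes on each side, 185 in all, of which 120 passed the mean filter of 10. Neighbours were taken by gene order whatever their distance, and the furthest listed lay 289 kb from its locus. In rps6a 22 of the 120 changed against WT, 14 higher and 8 lower (18.3%, where 21.2% of all 16335 tested genes changed by limma at an adjusted p under 0.05). In rps6b 28 changed, 12 higher and 16 lower (23.3%, all genes 23.3%). In eS6A-HA 2 changed, both higher (1.67%, all genes 0.796%), in eS6A-Δ6SA 2, both higher (1.67%, all genes 2.57%), and between eS6A-Δ6SA and eS6A-HA 4, 2 higher and 2 lower (3.33%, all genes 2.63%). The median log2 difference was -0.035 over the neighbours in rps6a and -0.091 in rps6b, against -0.0058 and -0.0063 over all genes. Under spike-in scaling, which moved the median of all genes in rps6a by 0.35 on the log2 scale, 39 neighbours were higher and 2 lower in rps6a (34.2%, where 37.2% of all genes changed under that scaling).

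**Figure D4:**
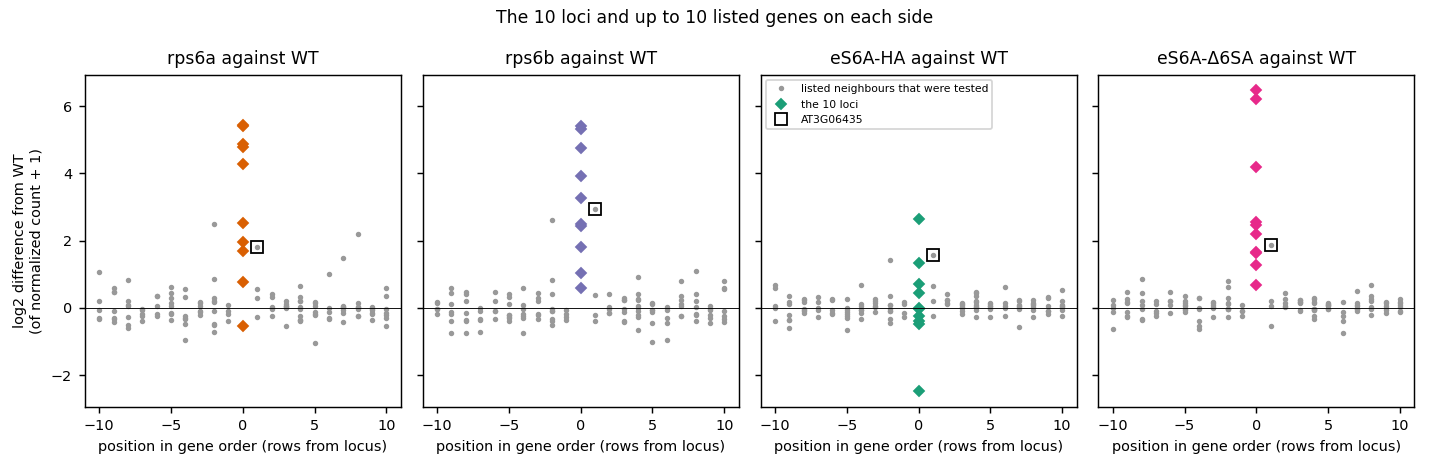
Log2 difference from WT of normalized count + 1 (y axis) for the 10 loci (coloured, at position 0) and the tested genes around them (grey) by their place in the table's gene order (x axis), 1 panel per line. In eS6A-Δ6SA the loci reach 6.49 while the squared neighbour, AT3G06435, is at 1.86.

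Of the 20 rows listed next to the loci, 8 could be tested. AT3G06435, a protein-coding gene 0.202 kb from AT3G01845 on the same strand, was higher than in WT in all 4 lines. Its values were 36.9, 25.3 and 28.7 normalized counts in rps6b, 16.9, 14.9 and 10.3 in eS6A-Δ6SA, 16.9, 13.3 and 10.03 in rps6a, 13.4, 10.9 and 8.99 in eS6A-HA and 3.56, 0.908 and 6.67 in WT. Every line lay apart from WT. Its log2 fold change was 2.93 in rps6b (SE 0.38, limma adjusted p 3.88e-07), 1.80 in rps6a (limma adjusted p 6.00e-04), 1.86 in eS6A-Δ6SA (limma adjusted p 0.00285) and 1.56 in eS6A-HA (limma adjusted p 0.0381). Like AT3G01845 it was highest in rps6b.

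The call of AT3G06435 in eS6A-HA was lost with edgeR (adjusted p 0.171) and with scaling to the spike-ins (limma adjusted p 0.0946). It was also lost without WT replicate 1 or 2 (limma adjusted p 0.0548 and 0.287) or eS6A-HA replicate 1, 2 or 3 (0.183, 0.113 and 0.0795). The eS6A-Δ6SA call was lost without WT replicate 2 (limma adjusted p 0.0556). AT4G04040 (MEE51), the listed row before AT4G04170 but 70.7 kb from it, fell by 0.39 on the log2 scale in rps6a (limma adjusted p 0.00201). It fell by 0.36 in rps6b (limma adjusted p 0.00377), from 352 ± 38.7 in WT to 267 ± 20.6 and 272 ± 3.44, and the difference of eS6A-Δ6SA from eS6A-HA was -0.42 (limma adjusted p 0.00755). Under spike-in scaling its rps6a and eS6A-Δ6SA calls were lost (limma adjusted p 0.857 and 0.371), as was the latter without eS6A-HA replicate 3 (0.0574).

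Among the other neighbours tested, the largest log2 fold change was that of AT5MAT (AT3G29590), a malonyltransferase of anthocyanin synthesis 52.2 kb from AT3G29633. In rps6b it rose to 146 ± 32.6 from 22.7 ± 3.96 in WT, by 2.62 on the log2 scale (SE 0.26, limma adjusted p 2.94e-07). It also rose to 133 ± 9.24 in rps6a (log2 2.51, limma adjusted p 5.58e-07) and to 62.9 ± 14.3 in eS6A-HA (log2 1.42, limma adjusted p 0.00785). The call in eS6A-HA was lost without eS6A-HA replicate 1 or WT replicate 2 or 3 (limma adjusted p 0.0508, 0.0730 and 0.0595). AT5MAT stood at 43.1 ± 17.5 in eS6A-Δ6SA, the only line with high AT3G29633, and did not pass the test (limma adjusted p 0.115). PMAT2 (AT3G29670), another malonyltransferase 74.2 kb from AT3G29633, fell from 71.3 ± 24.2 to 33.2 ± 7.16 in rps6a (by limma, log2 fold change -1.06, SE 0.22, adjusted p 6.20e-04). Around AT3G01345, DOX1 (AT3G01420), an alpha-dioxygenase 28.7 kb away, rose from 37.4 ± 18.2 to 172 ± 80.0 in rps6a (by limma, log2 fold change 2.19, SE 0.42, adjusted p 0.00299). HIR2 (AT3G01290), a membrane protein of the SPFH family, rose there from 19.8 ± 10.1 to 41.2 ± 13.3 (limma adjusted p 0.0427), a call lost without rps6a replicate 2 or 3 or WT replicate 1 or 2 (0.107, 0.153, 0.144 and 0.168).

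PFA-DSP4 (AT4G03960), a protein phosphatase 124 kb from AT4G04170 and 147 kb from AT4G04223, was lower in eS6A-Δ6SA, at 13.0 ± 4.18, than the 32.6 ± 6.92 of eS6A-HA (log2 difference -1.29, limma adjusted p 0.00755). That call was lost without eS6A-HA replicate 3 or eS6A-Δ6SA replicate 3 (limma adjusted p 0.0706 and 0.0911). FIB (AT4G04020), a plastid fibrillin 79.7 and 103 kb from the same loci, fell from 928 ± 29.6 to 659 ± 40.5 in rps6a (log2 fold change -0.49, limma adjusted p 3.13e-05). Near AT5G35935, AT5G35970, a nucleoside triphosphate hydrolase, fell from 1766 ± 141 to 1230.3 ± 152 in rps6a (log2 fold change -0.52, limma adjusted p 8.96e-06). G6PD1 (AT5G35790), a glucose-6-phosphate dehydrogenase 124 kb from AT5G35935, fell in rps6a from 922 ± 54.7 to 717 ± 59.5 (log2 fold change -0.36, limma adjusted p 8.69e-04). Under spike-in scaling these calls of FIB, AT5G35970 and G6PD1 were lost, with log2 values of -0.14, -0.17 and -0.0071 (limma adjusted p 0.397, 0.302 and 0.970).

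SUS4 (AT3G43190), a sucrose synthase 260 kb from AT3G42806, rose from 6.68 ± 1.74 to 21.2 ± 8.51 in rps6a (log2 fold change 1.47, limma adjusted p 0.0141). HA8 (AT3G42640), a proton pump 186 kb from AT3G42806, fell from 54.3 ± 2.58 to 32.6 ± 6.18 in rps6b (log2 fold change -0.73, limma adjusted p 0.0162). SUS4 was lost without rps6a replicate 1 or 3 or WT replicate 3 (limma adjusted p 0.0886, 0.0636 and 0.0665) and HA8 without rps6b replicate 3 (0.0922). NHX4 (AT3G06370), a sodium/proton exchanger near AT3G01845, fell from 31.0 ± 2.50 to 18.2 ± 2.57 in rps6b (log2 fold change -0.74, limma adjusted p 0.0175). It was lost with DESeq2 (adjusted p 0.0652) and without rps6b replicate 1 or 3 or WT replicate 2 (limma adjusted p 0.0633, 0.0584 and 0.0691). Near AT5G28335, AT5G28400 fell from 39.8 ± 3.47 to 24.9 ± 2.46 in rps6b (limma adjusted p 0.0217) and the kinase gene NEK3 (AT5G28290) rose from 53.1 ± 14.6 to 80.1 ± 10.5 in rps6a (limma adjusted p 0.0263). AT5G28400 was lost with DESeq2 (adjusted p 0.0638) and without rps6b replicate 1 or 3 or WT replicate 2 (limma adjusted p 0.0634, 0.0705 and 0.0864). NEK3 was lost without rps6a replicate 1 or 2 or WT replicate 2 or 3 (limma adjusted p 0.125, 0.0543, 0.131 and 0.118).

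Near AT2G35570, SKL2 (AT2G35500), named as like shikimate kinase, rose from 159 ± 15.5 to 219 ± 16.1 in rps6b (log2 fold change 0.46, limma adjusted p 0.00222). AT2G35470 rose from 62.6 ± 11.6 to 86.7 ± 11.3 in rps6a (limma adjusted p 0.0265), which was lost with DESeq2 (adjusted p 0.0723) and without rps6a replicate 1 or WT replicate 2 or 3 (limma adjusted p 0.147, 0.0658 and 0.174). Near AT5G60250, AT5G60150 was higher in eS6A-Δ6SA, at 38.5 ± 3.79, than the 17.9 ± 1.92 of eS6A-HA (log2 difference 1.06, limma adjusted p 0.00212). AT5G60390, a translation elongation factor gene, rose from 4874 ± 423 to 7122 ± 152 in rps6b (log2 fold change 0.55, limma adjusted p 7.07e-07). It belongs to a family of near-identical copies, so its level is uncertain where reads were split among them.

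A list of 42 genes of DNA methylation, histone H3 lysine 9 methylation, small RNA silencing and demethylation was tested as well, and all 42 passed the filter. In rps6a 7 changed against WT, 4 higher and 3 lower (16.7%, all genes 21.2%), and in rps6b 8, 5 higher and 3 lower (19.0%, all genes 23.3%). In eS6A-HA and in eS6A-Δ6SA 0 changed by limma, edgeR or DESeq2, with 6 and 4 at an unadjusted limma p under 0.05, and between these lines 1 changed. The median log2 difference over the list was 0.13 in rps6b, 0.073 in rps6a, 0.046 in eS6A-Δ6SA and 0.0048 in eS6A-HA. Over all genes tested, 10.4% rose and 10.8% fell in rps6a and 11.6% rose and 11.7% fell in rps6b. Of the 15 genes of RNA-directed DNA methylation 1 rose in rps6a, and 1 rose and 1 fell in rps6b. Of the 9 genes for DNA or histone methylation, 3 rose in each single mutant (DDM1, MET1 and VIM1) and 0 fell. Of the 8 genes of chromatin repression 1 fell in each, of the 5 demethylases 2 fell in rps6a while 1 rose and 1 fell in rps6b, and of the 5 genes of post-transcriptional silencing 0 changed in either by limma.

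DDM1, the chromatin remodeller, rose from 61.6 ± 10.6 in WT to 103 ± 6.02 in rps6a (by limma, log2 fold change 0.74, SE 0.15, adjusted p 3.92e-04) and 91.2 ± 2.87 in rps6b (limma adjusted p 0.00525). MET1 rose from 181 ± 22.0 to 277 ± 38.5 in rps6b (by limma, log2 fold change 0.61, SE 0.13, adjusted p 5.32e-04), and VIM1, which recruits it, rose to 168 ± 26.0 from 110 ± 26.8 in rps6a (limma adjusted p 0.00318). DCL3, the dicer of the small RNAs that guide methylation, rose from 34.1 ± 0.620 to 51.7 ± 2.34 in rps6a (limma adjusted p 0.0262) and 53.6 ± 10.7 in rps6b (limma adjusted p 0.0171). MOM1, a silencing factor that acts largely apart from DNA methylation, fell from 295 ± 9.25 to 235 ± 9.67 in rps6a and 222 ± 7.86 in rps6b (limma adjusted p 0.00849 and 0.00121).

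ROS1, a demethylase, fell from 388 ± 20.9 in WT to 269 ± 3.83 in rps6a (by limma, log2 fold change -0.53, SE 0.090, adjusted p 3.11e-05). In rps6b, at 337 ± 36.1, it did not pass the test (limma adjusted p 0.0949). It was higher in eS6A-Δ6SA, at 438 ± 21.6, than in eS6A-HA, at 315 ± 11.1 (log2 fold change 0.47, limma adjusted p 0.00145). DML3, another demethylase, fell from 47.5 ± 6.79 to 27.9 ± 0.509 in rps6a (log2 fold change -0.74, limma adjusted p 0.00769). DME, a demethylase best known from the female gametophyte, rose from 228 ± 26.8 to 289 ± 22.6 in rps6b (limma adjusted p 0.0117), and SUVH9, a reader of methylated DNA, fell from 235 ± 18.1 to 185 ± 13.8 (limma adjusted p 0.0189).

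**Figure D5:**
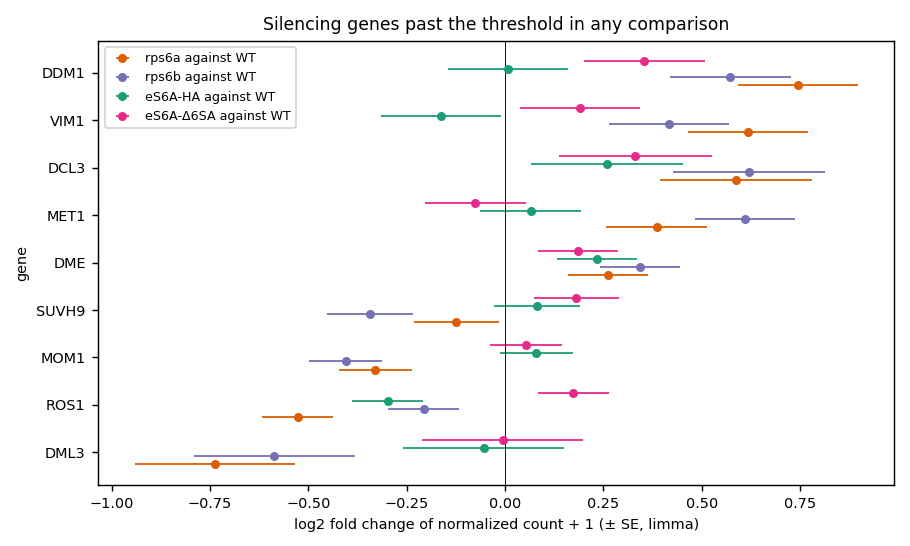
Log2 fold change against WT of normalized count + 1 (x axis, limma estimate ± SE) of the 9 list genes (y axis) that changed in any comparison, by line. Relative to the deposited scaling, DML3, ROS1 and MOM1 lie to the left in rps6a and DDM1, VIM1, DCL3 and MET1 to the right, whereas under spike-in scaling MOM1 in rps6a moves to 0.027.

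These calls depended on scaling and on single libraries. Under spike-in scaling 17 genes of the list were higher and 0 lower in rps6a (40.5%, where 37.2% of all genes changed under that scaling), and ROS1 (limma adjusted p 0.307), DML3 (0.163) and MOM1 (0.892) were lost there. In rps6b DME (0.149), DCL3 (0.0517) and SUVH9 (0.0848) were lost under it. With DESeq2, DCL3 in rps6a was lost (adjusted p 0.0770). DCL3 in rps6a was also lost without rps6a replicate 1 or 2 or WT replicate 2 or 3 (limma adjusted p 0.0818, 0.0589, 0.0582 and 0.0653), and in rps6b without rps6b replicate 1 (0.130). DDM1 in rps6b was lost without WT replicate 3 (limma adjusted p 0.0623), DME without rps6b replicate 1 or WT replicate 1 (0.0632 and 0.105), and SUVH9 without rps6b replicate 1 or 2 or WT replicate 3 (0.0744, 0.0641 and 0.106). MET1 in rps6a (limma adjusted p 0.0278) was lost without rps6a replicate 2 or WT replicate 2 or 3 (0.173, 0.0752 and 0.144). VIM1 in rps6b (limma adjusted p 0.0461) was lost with DESeq2 (adjusted p 0.0799), with scaling to the spike-ins (limma adjusted p 0.111) and without rps6b replicate 2 or 3 or WT replicate 2 or 3 (0.143, 0.158, 0.0955 and 0.323). DML3 in rps6b (limma adjusted p 0.0337) was lost with DESeq2 (adjusted p 0.101), with scaling to the spike-ins (limma adjusted p 0.0506) and without rps6b replicate 1 or 2 or WT replicate 1 or 2 (0.245, 0.0683, 0.122 and 0.0937).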

How the data were processed

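Values that the authors deposited are a signal, DESeq2-normalized counts of each gene, in which a library's read counts share 1 size factor, per the file headers. The submitters' processing notes name STAR 2.7.6a, featureCounts 2.0.0, DESeq2 1.26.0 and the build TAIR10. The annotation, the use of strand and any filter are not given in the sources used here. Libraries held ERCC spike-in RNAs (77 rows, 4.39% to 6.08% of reads, left out of tests) and gave paired-end reads of 75 bases, per the labels' protocols. The labels give no batch.

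Every positive value was a whole multiple of a step per library (100% within a tolerance of 0.01), so reads could be recovered. No replicates agreed within sampling noise (chi-square over its degrees of freedom, 1.71 to 5.32). Ratios of the loci use pooled reads of 3 libraries, with an exact (Clopper-Pearson) 95% interval, or, against 0 reads, a floor of 3 reads over the group.

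Lists were tested by limma 3.58.1 (R 4.3.3, trend and robust moderation) on log2(value + 1), a scale that understates changes of low genes, over 16335 genes with a mean of at least 10. All 15 libraries entered 1 fit, with Benjamini-Hochberg adjustment over all genes tested. The design assumed such normalized values. Alternatives were edgeR 4.0.16 and DESeq2 1.42.0 on recovered reads, a pseudocount of 5, other filters, TMM and spike-in scaling, a replicate block, only the groups compared, and leaving out each library. The fit was tested on simulated data. Coordinates and sequences were looked up by locus identifier in RefSeq TAIR10.1 (21565 of 21777 identifiers matched). The table itself holds no coordinates.

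The loci and the lists were chosen with earlier results of these data known. Named are all 10 loci, for each up to 2 changed neighbours by largest fold, up to 6 changed silencing genes per comparison by adjusted p, the other loci off in WT and on elsewhere, and the 3 rows most correlated with each locus, of which the leading ones are given. AT4G04040 falls outside this rule and was chosen with its values known.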

Additional observations from a re-analysis of the deposited data

How the results depend on the processing

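Most counts held within 1.5 times (179, with 31 beyond), and 411 log2 differences of the loci moved by at most 1 SD while 39 moved by more. Leaving out 1 of 3 libraries cannot move a difference beyond this SD, so those settings were bound to be among the 411. All 39 came from the pseudocount or a scaling, and the 411 are therefore no measure of stability. Over all of these log2 differences together, 8 had the opposite sign. These were AT3G01345 and AT3G29633 in eS6A-HA against WT and AT3G01845 between the transgenic lines, all near 0. Spike-in scaling gave 41 neighbours changed in rps6a (34.2%), 10 between the transgenic lines (8.33%), 17 in rps6b (14.2%) and 1 in eS6A-HA (0.833%). It gave 17 silencing genes in rps6a (40.5%), 8 between the transgenic lines (19.0%) and 3 in rps6b (7.14%). Of all genes under it, 35.3% rose and 1.86% fell in rps6a, and 7.40% rose and 8.38% fell in rps6b. Between the transgenic lines 5.41% rose and 0.245% fell, and in eS6A-HA 0.184% rose and 0.104% fell. In eS6A-HA 1 neighbour was called with a pseudocount of 5, with only the groups compared, with edgeR and with DESeq2, and in eS6A-Δ6SA 1 with only the groups compared. Of loci off in WT and on elsewhere, 4 were counted at 1 read or fewer in WT, 36 met a minimum of 10 normalized counts and 5 one of 40. The cause was not tested. Leaving out 1 library gave 16 to 23 changed neighbours for rps6a, 21 to 32 for rps6b, 0 to 1 in eS6A-HA (0 without WT replicate 2 or eS6A-HA replicate 1), 1 to 5 in eS6A-Δ6SA (1 without WT replicate 2, 4 and 5 without eS6A-Δ6SA replicate 1 and 2) and 2 to 10 between the transgenic lines (2 without eS6A-HA replicate 3, 10 without eS6A-Δ6SA replicate 1). For silencing genes it gave 5 to 8 in rps6a, 5 to 8 in rps6b (5 without WT replicate 3 or rps6b replicate 1 or 2), 0 in either transgenic line and 1 to 2 between them (2 without eS6A-Δ6SA replicate 1). The count of loci off in WT and on elsewhere ranged from 11 to 18. Its conditions apply to every library, so leaving 1 out cannot lower this count, and only the upper end was open. Same-numbered replicates did not pair, as the correlation of their deviations ran from -0.16 to 0.18 and no comparison had all 3 above 0.1. With the replicate block 23, 29, 2, 3 and 4 neighbours and 8, 7, 0, 0 and 1 silencing genes changed, for rps6a, rps6b, eS6A-HA and eS6A-Δ6SA against WT and eS6A-Δ6SA against eS6A-HA. At these depths, levels of a few reads are loosely bounded.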
